A study of Homo sapiens with 12 samples.

Results

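The human histone cluster genes were examined across 12 RNA-seq libraries of MG63 cells, an established osteosarcoma line. They were taken by name, as the rows of the count table whose symbol begins with HIST1H, HIST2H, HIST3H or HIST4H, leaving out 12 names that end in PS or PS and a digit. This gave 76 genes of 50868 in the table, of which 6 are named for linker histone H1, 17 for H2A, 23 for H2B, 15 for H3 and 15 for H4. GENCODE release 29 held 75 of them under the identifier of the count table, 70 as protein-coding genes and 5 as pseudogenes. The remaining member, HIST2H2BC, is named there under another identifier and was not matched. One experiment exposed the cells to anticarin-beta at 1 µM, or to vehicle, for 18 hours. The other transfected them with CCT4 siRNA or a control siRNA and collected them after 2 days; CCT4 encodes one subunit of the chaperonin that folds actin and tubulin. Each of the 4 groups had 3 libraries. No label says that the 3 came from separate cultures, so p-values measure the spread between these libraries, which may be technical.

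Histones package DNA into nucleosomes. H2A and H2B form dimers, H3 and H4 form the tetramer they dock onto, and H1 binds the linker DNA between nucleosomes. The clustered genes are best known for being used in S phase, when new DNA needs new histones. Their main transcripts end without a poly(A) tail at a short stem-loop, which the stem-loop binding protein SLBP recognises and after which the U7 ribonucleoprotein directs the cut. Many of the genes also have annotated transcripts that run on past the stem-loop. The sources used here do not say whether poly(A) RNA was selected for the libraries, and reads from these 2 kinds of transcript were not separated in the counts.

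The stem-loop is shown first, because it is the feature that sets these mRNAs apart. A search found it in the GENCODE transcripts of 34 of 75 members, in GRCh38. The search asked for the letters GGYYYT, a loop of 4 bases and ARRRCC, where Y is C or T and R is A or G. All 6 bases of the stem had to pair, with G-T pairs allowed. Hairpins with other letters were not sought, so the letters fixed in this pattern are shared by all sites. The same pattern was found in 271 of 19684 protein-coding genes (1.38%), of which 32 were members. Capitals mark the stem and loop, with 5 flanking bases on each side, read 5′ to 3′ on the strand of the gene.
HIST3H2A: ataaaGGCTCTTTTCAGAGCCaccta
HIST1H2BG: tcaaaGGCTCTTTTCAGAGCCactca
HIST1H2BF: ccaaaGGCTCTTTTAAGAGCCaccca
HIST1H3E: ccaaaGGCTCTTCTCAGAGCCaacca
HIST1H3H: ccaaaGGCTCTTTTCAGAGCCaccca
HIST1H4H: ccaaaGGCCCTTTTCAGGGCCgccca
HIST2H4B: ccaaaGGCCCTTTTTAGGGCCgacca
All 8 H4 members with the site had a stem that starts GGCCC, and all 26 others had one that starts GGCTC. The 34 sites held 6 different stem-loop sequences, and the commonest was found in 18 members. Of the 34 members with the site, 30 could be tested and 27 of these were called higher with anticarin-beta (edgeR, adjusted p under 0.05), where 34.9% of all 17717 genes tested were called higher. Of the 41 without it, 13 could be tested and 11 were called higher. The gene model of 33 members stops at the coding part, so a stem-loop could not be found there.

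The regions just before the start of 3 members described below are given next, from RefSeq on GRCh38.p14, each 250 bases, read 5′ to 3′ on the strand of the gene. Capitals mark 3 motifs searched on both strands, the TATA box (TATAAA), the CCAAT box (CCAAT, or ATTGG on the other strand) and the octamer (ATTTGCAT, or its reverse complement).
HIST1H2BG (chr6:26216689-26216938, minus strand): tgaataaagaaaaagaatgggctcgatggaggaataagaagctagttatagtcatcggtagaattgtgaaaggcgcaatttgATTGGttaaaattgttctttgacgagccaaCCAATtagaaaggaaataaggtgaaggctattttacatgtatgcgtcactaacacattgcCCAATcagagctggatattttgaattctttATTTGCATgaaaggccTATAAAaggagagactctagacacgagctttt
HIST3H2A (chr1:228457874-228458123, minus strand): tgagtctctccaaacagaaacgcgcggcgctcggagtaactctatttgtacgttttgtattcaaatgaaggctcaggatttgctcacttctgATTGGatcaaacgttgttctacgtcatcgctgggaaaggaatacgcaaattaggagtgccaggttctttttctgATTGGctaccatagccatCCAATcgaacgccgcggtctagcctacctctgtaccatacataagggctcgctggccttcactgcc
HIST1H4H (chr6:26285535-26285784, minus strand): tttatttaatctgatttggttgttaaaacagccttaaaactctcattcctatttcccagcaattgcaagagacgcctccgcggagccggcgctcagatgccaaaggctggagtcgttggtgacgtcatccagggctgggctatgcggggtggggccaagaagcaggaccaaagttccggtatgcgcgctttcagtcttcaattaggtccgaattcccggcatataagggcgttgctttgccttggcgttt
HIST1H2BG, which encodes an H2B, lies on the minus strand at chr6:26215159-26216692. It holds all 3 motifs in its window and stands head to head with the H2A gene HIST1H2AE, whose start is 283 bases away. HIST3H2A, an H2A gene at chr1:228456979-228457873 on the minus strand, holds CCAAT boxes and stands 234 bases from the start of the H2B gene HIST3H2BB. HIST1H4H, an H4 gene at chr6:26277609-26285638 on the minus strand, holds none of these letters in its window.

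RefSeq promoters, which run from 250 bases before to 50 bases after the start, were matched to 61 members. TATAAA was found in 65.6% of them, against 11.5% of 35116 RefSeq promoters. CCAAT was found in 83.6% of the members' promoters and 34.6% of all promoters, and the octamer in 42.6% and 1.77%. Members with and without each motif were called higher with anticarin-beta in most cases. With TATAAA these were 20 of 24 tested members, and without it 14 of 15. The counts were 27 of 31 with CCAAT and 7 of 8 without, and 14 of 16 with the octamer and 20 of 23 without. All are near the 88.6% called higher over all tested members, where 34.9% of all genes tested were called higher.

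Library totals ran from 13393750 to 17492095 counts, and levels are given in CPM, which are counts normalized to the library total and here scaled by TMM. At these totals 3 counts in a library correspond to 0.160 to 0.277 CPM. The libraries labelled CCT4 siRNA did not have less CCT4 mRNA (206 ± 9.18 CPM) than those with control siRNA (177 ± 14.4 CPM, with SD and n = 3 each). The log2 fold change was 0.22 with an adjusted p = 0.129, so directions in this comparison are those of the labels. CCT4 mRNA averaged 82.3 ± 8.49 CPM with anticarin-beta and 236 ± 22.9 CPM with vehicle (log2 fold change −1.52, adjusted p = 1.84e-08). Of 14 marker genes, COL1A1, COL1A2, SPARC and VIM, which mark mesenchyme and the osteoblast lineage, averaged 316 CPM or more in every group. The osteoblast genes RUNX2 and ALPL averaged 3.74 to 18.3 CPM and BGLAP 0.440 to 1.86 CPM, while SP7 and IBSP and the epithelial EPCAM and CDH1 were at or near 0. The leukocyte gene PTPRC averaged at most 1.80 CPM, and the mesenchymal TWIST1 6.39 to 19.7 CPM. The experiments differed in some of these: COL1A1 averaged 5018 CPM with anticarin-beta, 3777 CPM with vehicle, 756 CPM with CCT4 siRNA and 533 CPM with control siRNA, and the endothelial gene PECAM1 averaged 2.20, 4.52, 12.7 and 12.9 CPM with anticarin-beta, vehicle, CCT4 siRNA and control siRNA. The part of these differences in the results was not tested. Bulk RNA was measured, so fewer or more cells with a transcript and less or more of it per cell cannot be told apart.

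Summed over all 76 members, the counts given to histone cluster genes were much higher with anticarin-beta. Whether these reads came from transcripts that end at the stem-loop or from longer ones was not tested. The sum was 1075, 1001 and 1040 CPM in the anticarin-beta libraries, against 128, 149 and 138 CPM in the vehicle libraries. The groups were far apart, and the ratio of their means was 7.51. It was 736, 710 and 722 CPM in the CCT4 siRNA libraries, against 520, 497 and 483 CPM with control siRNA, a ratio of 1.45 with no overlap. As long as no read is dropped or counted again, the sum over all members does not depend on which member it is given to. The treatment of multi-mapping reads is not given, and some members share sequence with other genes, such as HIST1H3D with AL031777.3. Class sums also depend on where reads are placed when genes of different classes overlap, as HIST1H2AM and HIST1H3J do. The sums carry no test, since the members were chosen with results of these data known.

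All 5 classes had higher sums with anticarin-beta, and in each class the 3 treated libraries lay above the 3 vehicle libraries. H4 averaged 161 ± 1.87 CPM with anticarin-beta and 18.1 ± 1.86 CPM with vehicle (SD, n = 3 each), which is 8.88-fold. H2A averaged 343 ± 34.7 CPM with anticarin-beta and 39.5 ± 4.04 CPM with vehicle, which is 8.69-fold. H4 and H2A had the highest ratios and differed by less than their spread, and without anticarin-beta replicate 2 the log2 ratio was 3.20 for H2A and 3.16 for H4. H2B averaged 374 ± 2.87 CPM with anticarin-beta and 54.1 ± 7.14 CPM with vehicle, which is 6.91-fold. These 3 classes make core particles together with H3, whose sum was 101 ± 4.39 CPM with anticarin-beta and 15.3 ± 1.56 CPM with vehicle, or 6.61-fold. The linker H1 had the lowest ratio, 5.30-fold, at 59.4 ± 3.6 CPM with anticarin-beta and 11.2 ± 0.646 CPM with vehicle.

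**Figure D1:**
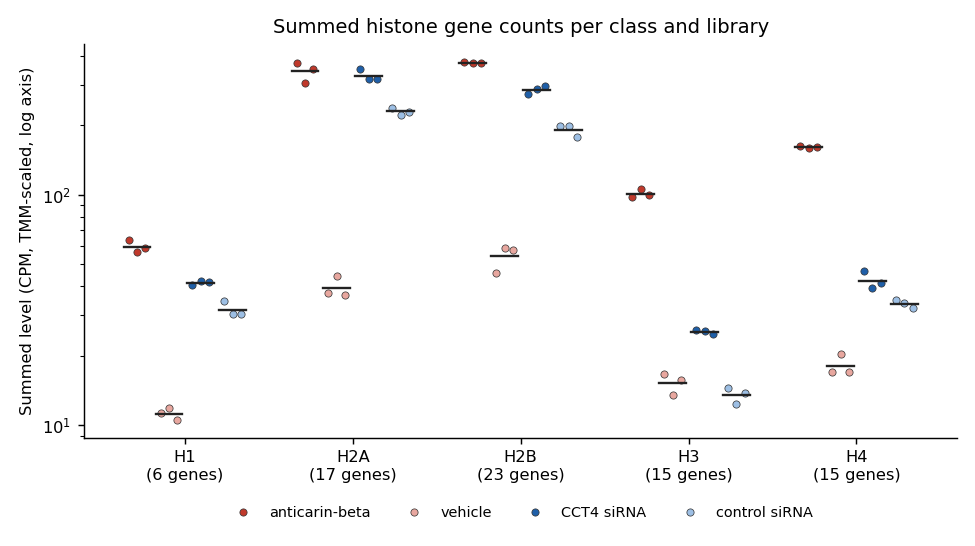
Summed level of each histone class (CPM on a log axis) in every library, with points for libraries and bars for group means, for anticarin-beta, vehicle, CCT4 siRNA and control siRNA. The 3 anticarin-beta libraries lie above the 3 vehicle libraries in all 5 classes, and the vehicle sums of H1, H2A, H2B and H4 lie below those with control siRNA.

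The CCT4 siRNA libraries also had higher sums than control siRNA in all 5 classes without overlap, by smaller ratios. The ratio was highest for H3, at 25.4 ± 0.545 CPM with CCT4 siRNA and 13.5 ± 1.14 CPM with control siRNA, or 1.88-fold. H2B gave 1.49-fold, H2A 1.43-fold, H1 1.31-fold and H4 1.26-fold. Without CCT4 siRNA replicate 2 the log2 ratio was 0.38 for both H1 and H4. H3 had the highest ratio under all scalings and with any 1 library left out. The order of the classes was not tested between the experiments.

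The makeup of the pool also differed between the experiments. H2A and H2B together held most of the summed CPM everywhere. H4 made up 15.5 ± 0.394% of the sum with anticarin-beta and 13.1 ± 0.653% with vehicle, but 5.86 ± 0.409% with CCT4 siRNA and 6.74 ± 0.0654% with control siRNA. H3 likewise made up 9.74 ± 0.770% with anticarin-beta, 11.2 ± 1.91% with vehicle, 3.52 ± 0.0753% with CCT4 siRNA and 2.71 ± 0.203% with control siRNA. H2A made up 33.0 ± 2.21% with anticarin-beta and 28.6 ± 1.64% with vehicle, against 45.3 ± 1.91% with CCT4 siRNA and 45.9 ± 1.37% with control siRNA.

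Of the 76 members, 44 passed the low-count filter and could be tested, namely 4 H1, 9 H2A, 15 H2B, 7 H3 and 9 H4. The other 32 averaged at most 0.672 CPM in any group. Among them HIST1H1A, HIST1H2AA, HIST1H2AK, HIST1H2BA and HIST1H4G had 0 counts in all 12 libraries. The filter asks for about 0.669 CPM in at least 3 libraries, and 13 tested members were over that level in all 3 anticarin-beta libraries but not in all 3 vehicle libraries. Of those 13, 9 were also over it in all 3 libraries of an siRNA group, and 4 were over it in all 3 libraries of the anticarin-beta group alone. Those 4 were HIST1H1T, HIST1H2AJ, HIST1H4D and HIST4H4. Counts over tested members are a description of this subset. Of the 29 tested members over the level in all 3 vehicle libraries, 27 were called higher.

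With anticarin-beta, 39 of the 44 tested members rose and 0 fell by edgeR's quasi-likelihood test (Benjamini-Hochberg adjusted p under 0.05). Also at an unadjusted p under 0.05, 0 were lower, and DESeq2 and limma-voom called 38 and 39 higher and 0 lower. Over all 17717 genes tested, 34.9% were called higher and 38.0% lower. The median log2 fold change was 2.56 over the tested members (from 0.61 to 6.53, leaving out HIST1H1T, which had 0 vehicle counts and is given below as a bound; the median is the same with it at that bound) and −0.06 over all genes, and 38 of the 39 rose by more than 2-fold. Other ways of scaling shifted the median of all genes to 0.00 (RLE), −0.18 (upper quartile) and −0.48 (library totals alone), and under each of these 36 or more members were called higher and 0 lower. All 4 tested H1 genes rose, 6 of 9 H2A, all 15 H2B, 6 of 7 H3 and 8 of 9 H4. The 5 that missed the threshold were HIST1H2AI (log2 fold change 0.61), HIST1H2AJ (0.83), HIST1H2AM (1.29), HIST1H3G (0.72) and HIST4H4 (1.00), with adjusted p from 0.0687 to 0.198. HIST4H4 was called without anticarin-beta replicate 3 (1.22, adjusted p = 0.0487) or control siRNA replicate 1 (0.99, adjusted p = 0.0467), and with each experiment fitted alone (1.00, adjusted p = 0.0296).

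**Figure D2:**
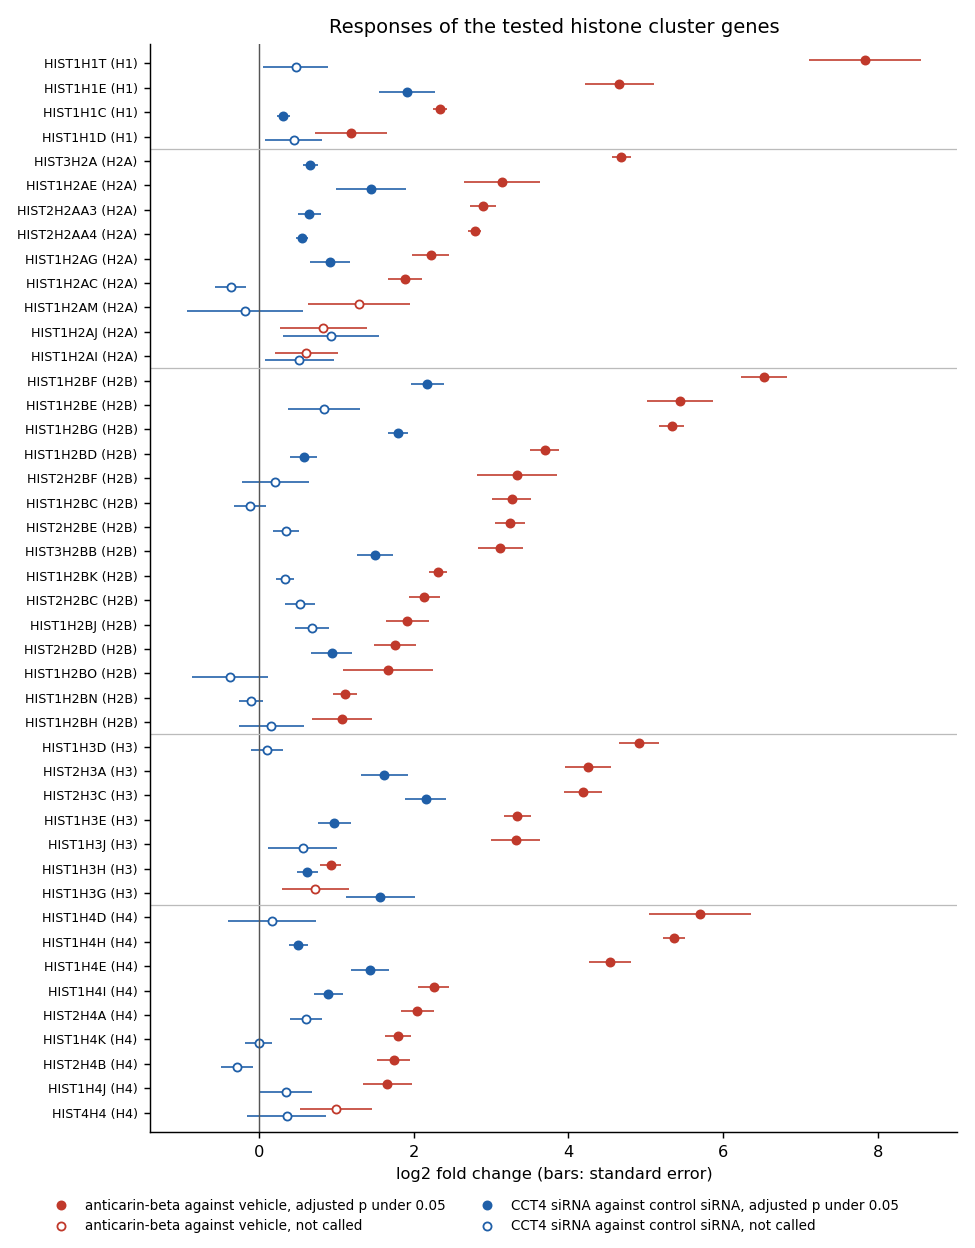
Log2 fold change with its standard error for the 44 tested members, grouped by class (anticarin-beta against vehicle in red, CCT4 siRNA against control siRNA in blue), with filled points for adjusted p under 0.05. Every red point lies to the right of 0 and 39 are filled (the point of HIST1H1T, over 0 vehicle counts, depends on the prior count), while the blue points lie between −0.38 and 2.18 with 20 filled.

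Among linker histones, HIST1H1C (H1.2, chr6:26055787-26056428, minus strand) was the member with the highest vehicle level. It had 56.1, 49.2 and 52.4 CPM with anticarin-beta, against 10.7, 10.7 and 9.84 CPM with vehicle. The groups were well apart, and the log2 fold change was 2.34 ± 0.09 (SE; adjusted p = 2.63e-10). HIST1H1E (H1.4, chr6:26156354-26157107, plus strand) had 4.86, 3.42 and 3.51 CPM with anticarin-beta, against 0.160, 0.241 and 0.0535 CPM with vehicle, with a log2 fold change of 4.66 ± 0.45 (adjusted p = 8.77e-07). HIST1H1T, known as the testis form of H1, had 0 counts in every vehicle library and 64 counts over the 3 anticarin-beta libraries (1.34, 2.5 and 1.76 CPM). Against 3 counts over the vehicle group this is at least 33.2-fold higher. HIST1H1T was over the filter level in all 3 anticarin-beta libraries and 1 CCT4 siRNA library. It could thus be tested only because it was high with anticarin-beta. HIST1H1D (H1.3) stayed below 1 CPM in both groups of this experiment and its libraries overlapped. Its log2 fold change of 1.19 ± 0.46 (adjusted p = 0.0343) missed the threshold without vehicle replicate 1 (0.92) or 3 (0.92) or anticarin-beta replicate 1 (1.22) or 2 (0.92), and also by DESeq2 (1.28), with upper-quartile scaling (1.08), library totals alone (0.78) or no low-count filter (1.16).

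For H2A, HIST3H2A gave the largest response. Its level was 179, 142 and 159 CPM with anticarin-beta, against 6.98, 6.03 and 5.61 CPM with vehicle. All 3 treated libraries lay far above the vehicle libraries (25.7-fold, log2 fold change 4.68 ± 0.12, adjusted p = 1.32e-11). HIST1H2AE, the partner of HIST1H2BG, had 4.70, 2.87 and 4.43 CPM with anticarin-beta, against 0.533, 0.724 and 0.107 CPM with vehicle (log2 fold change 3.14 ± 0.49, adjusted p = 7.58e-05). HIST2H2AA3, the H2A gene with the highest vehicle level, had 75.5, 61.4 and 72.5 CPM with anticarin-beta, against 8.26, 12.4 and 7.65 CPM with vehicle. It rose 7.43-fold (log2 fold change 2.89 ± 0.17, adjusted p = 6.66e-09), but all of its 50-base stretches recur in other genes, mainly its copy HIST2H2AA4, so the share of reads given to each is uncertain. HIST2H2AA4 itself rose 6.91-fold, at 61.3 ± 4.91 CPM with anticarin-beta and 8.87 ± 0.402 CPM with vehicle (SD, n = 3 each).

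The smallest called changes among H2A genes were those of HIST1H2AC and HIST1H2AG. HIST1H2AC (chr6:26124145-26139116, plus strand) had 29, 28.8 and 32.0 CPM with anticarin-beta, against 5.59, 9.35 and 9.41 CPM with vehicle, a log2 fold change of 1.89 ± 0.22 (adjusted p = 4.64e-06). HIST1H2AG had 9.98, 10.4 and 11.7 CPM with anticarin-beta, against 2.5, 2.41 and 1.98 CPM with vehicle, a log2 fold change of 2.22 ± 0.24 (adjusted p = 2.46e-06). Neither pair of groups overlapped. HIST1H2AM, which was not called, spread widely within the treated group at 8.13, 0.462 and 2.43 CPM, and it shares exons with HIST1H3J. Without anticarin-beta replicate 2 it was called, at a log2 fold change of 1.80 (adjusted p = 0.00639).

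All 15 tested H2B genes were higher with anticarin-beta. These include HIST2H2BD, a transcribed pseudogene with 71.0% of its 50-base stretches in other genes, and HIST2H2BC, which was not matched in GENCODE. HIST1H2BF (chr6:26199520-26200715, plus strand) had the largest change, with 10.2, 12.8 and 10.1 CPM with anticarin-beta, against 0.0533, 0.181 and 0.107 CPM with vehicle. Its vehicle libraries held 3 counts or fewer each, and the log2 fold change was 6.53 ± 0.30 (adjusted p = 8.94e-10). HIST1H2BG had 51.4, 47.0 and 50.5 CPM with anticarin-beta, against 0.959, 1.15 and 1.55 CPM with vehicle, so that it was 40.4-fold higher (log2 fold change 5.34 ± 0.16, adjusted p = 3.07e-11). HIST1H2BE had 8.72, 9.43 and 9.37 CPM with anticarin-beta, against 0.160, 0.121 and 0.321 CPM with vehicle (log2 fold change 5.44 ± 0.43, adjusted p = 1.35e-07). Its exons overlap those of AL353759.1 on the opposite strand, and no source says whether counting used the strand, so the neighbour's reads may be included.

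HIST1H2BK, an H2B gene with a model of the coding part only, was the member with the highest level per kb of exon in both groups of the compound experiment, at 247 CPM per kb with anticarin-beta and 49.8 CPM per kb with vehicle. It had 95.3, 93.4 and 94.0 CPM with anticarin-beta, against 15.8, 22.4 and 18.7 CPM with vehicle (log2 fold change 2.31 ± 0.12, adjusted p = 1.99e-09). Of its 50-base stretches 74.1% recur in other genes. The smallest called H2B changes were those of HIST1H2BH and HIST1H2BN. HIST1H2BN had 19.0, 25.6 and 26.3 CPM with anticarin-beta, against 9.16, 12.7 and 10.9 CPM with vehicle (log2 fold change 1.11 ± 0.16, adjusted p = 3.32e-05), and it shares exon sequence with HIST1H2AL on its strand and HIST1H2AK on the other. HIST1H2BH had 2.01, 2.40 and 1.42 CPM with anticarin-beta, against 1.23, 0.663 and 0.855 CPM with vehicle. Its log2 fold change of 1.07 ± 0.38 (adjusted p = 0.0238) missed the threshold without vehicle replicate 2 (0.87) or 3 (1.01) or anticarin-beta replicate 1 (1.04) or 2 (0.89), and with library totals alone (0.65).

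**Figure D3:**
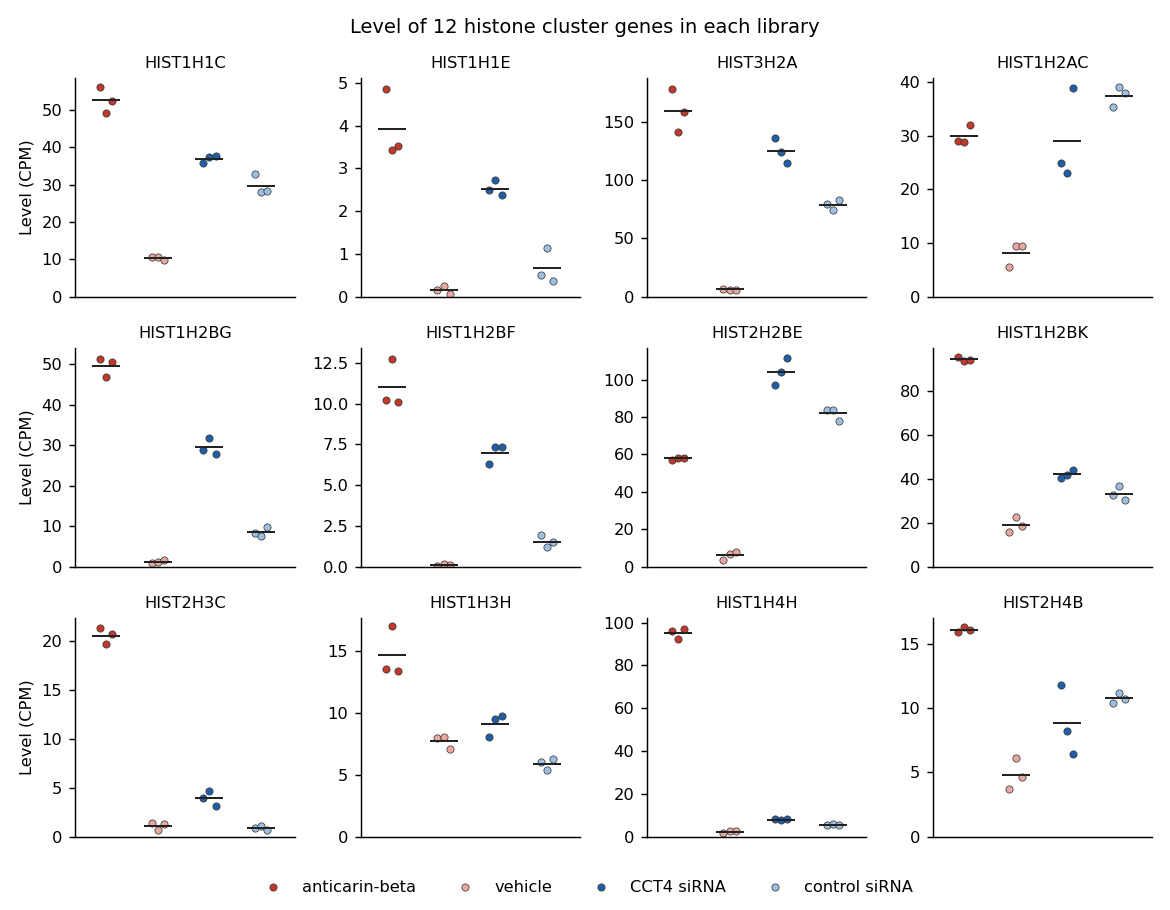
Level (CPM, linear axis from 0) of 12 members in each of the 12 libraries, in the order anticarin-beta, vehicle, CCT4 siRNA and control siRNA, with points for libraries and bars for means. HIST1H4H stands at 92.4 to 97.2 CPM with anticarin-beta and below 9 CPM in the other 9 libraries, while HIST2H2BE is higher in both siRNA groups than with anticarin-beta.

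Among H3 genes, HIST2H3A and HIST2H3C encode the same protein and their models are copies, with all 50-base stretches shared. HIST2H3A had 21.0, 21.9 and 18.5 CPM with anticarin-beta, against 1.55, 0.543 and 1.07 CPM with vehicle (log2 fold change 4.25 ± 0.30, adjusted p = 4.08e-08). HIST2H3C had 21.3, 19.7 and 20.8 CPM with anticarin-beta, against 1.39, 0.663 and 1.28 CPM with vehicle (log2 fold change 4.19 ± 0.24, adjusted p = 6.17e-09). Since reads can be split between the copies in any way, their separate values are uncertain. On the opposite strand the exons of HIST2H3A overlap those of HIST2H4B, and the exons of HIST2H3C overlap those of HIST2H4A. No source says whether counting used the strand, so reads of these H4 genes may be included. HIST1H3D had 9.73, 9.43 and 9.79 CPM with anticarin-beta, against 0.480, 0.181 and 0.267 CPM with vehicle (log2 fold change 4.91 ± 0.26, adjusted p = 2.99e-09), and its exon is shared in full with AL031777.3 on the same strand.

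HIST1H3H (chr6:27810064-27811300, plus strand), the H3 gene with the highest vehicle level, changed least among the called H3 genes. Its level was 13.6, 17.1 and 13.4 CPM with anticarin-beta, against 7.99, 8.08 and 7.06 CPM with vehicle. The groups did not overlap, with a log2 fold change of 0.93 ± 0.14 (1.90-fold, adjusted p = 4.65e-05), the one called member under 2-fold. None of its 50-base stretches recurs elsewhere. HIST1H3J had 6.04, 11.1 and 9.62 CPM with anticarin-beta, against 1.07, 0.724 and 0.855 CPM with vehicle (log2 fold change 3.32 ± 0.32, adjusted p = 8.91e-07). Of its 50-base stretches 40.9% recur in other genes, mainly in the H2A gene HIST1H2AM, whose exons overlap it on the same strand. Reads of HIST1H2AM may therefore be included.

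The proteins encoded by the H4 genes form the other part of the tetramer with H3. HIST1H4H had the smallest p of all members, at 96.0, 92.4 and 97.2 CPM with anticarin-beta, against 1.71, 2.77 and 2.46 CPM with vehicle. The treated libraries lay close together and far above the vehicle libraries (41.2-fold, log2 fold change 5.37 ± 0.14, adjusted p = 1.1e-11). None of its 50-base stretches recurs in another gene. HIST1H4D had 48 counts over the anticarin-beta libraries and 1 count over the vehicle libraries, a ratio of 74.8 with a 95% counting interval from 12.8 to 3014, which covers counting error only. It was over the filter level in the anticarin-beta libraries alone, so it could be tested only because it was high there. HIST2H4B had 15.9, 16.4 and 16.1 CPM with anticarin-beta, against 3.68, 6.15 and 4.65 CPM with vehicle (log2 fold change 1.74 ± 0.22, adjusted p = 9.51e-06). HIST1H4J had 5.95, 5.27 and 5.02 CPM with anticarin-beta, against 2.29, 1.27 and 1.55 CPM with vehicle (log2 fold change 1.66 ± 0.32, adjusted p = 0.000438). Both have near-identical copies: 97.2% of the 50-base stretches of HIST2H4B recur, mainly in HIST2H4A, and 81.2% of those of HIST1H4J, in HIST1H4K. The exons of HIST2H4B also overlap those of the H3 gene HIST2H3A on the opposite strand, so reads of HIST2H3A may be included.

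Of the tested members 0 were called lower with anticarin-beta, so the direction of the calls could not differ by sequence sharing. Of 49 members with under 10% of their 50-base stretches in other genes, 25 were tested and 23 were called higher with anticarin-beta, with a median log2 fold change of 3.14. Of the 26 with more sharing, 18 were tested and 15 were called higher, with a median of 2.18. Members with an annotated transcript that runs more than 100 bases past the stem-loop were all tested (24 of 24), and 22 were called higher (median 3.18). The remaining 51 have shorter models, with a median exon length of 411 bases against 1995 bases in those 24, and 19 were tested and 16 called higher (median 2.34). Over all tested members 88.6% were called higher, and over all genes tested 34.9%. A longer model collects more reads at the same level, so the share that passed the filter cannot be told apart from model length.

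The members lie in 4 clusters. HIST1 holds 55 members over 2168 kb of chromosome 6 (25726132 to 27893843 in GRCh38), HIST2 holds 16 and HIST3 4 on chromosome 1, and HIST4 is the single gene HIST4H4 on chromosome 12. HIST1 itself has a wide gap, with HIST1H4H as the last member before it and HIST1H2BJ as the first after it. In the 34 members up to HIST1H4H, 18 were tested and 17 were called higher, with a median log2 fold change of 4.11 (the same with HIST1H1T at its bound). In the 21 members from HIST1H2BJ on, 13 were tested and 10 were called higher, with a median of 1.67 and a highest value of 3.32. HIST2 gave 10 called of 10 tested (median 2.84) and HIST3 2 of 2 (median 3.90). Over all tested members 88.6% were called higher, and over all genes tested 34.9%. Some tested HIST1 members were over the filter level in all 3 anticarin-beta libraries but not in all 3 vehicle libraries. Before the gap these were HIST1H1E, HIST1H1T, HIST1H2AE, HIST1H2BC, HIST1H2BE, HIST1H2BF, HIST1H3D, HIST1H4D and HIST1H4E, and after it HIST1H2AJ and HIST1H2BO. The medians before and after the gap depend in part on such members. All medians here are given without a test, since members of a cluster are not replicates.

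**Figure D4:**
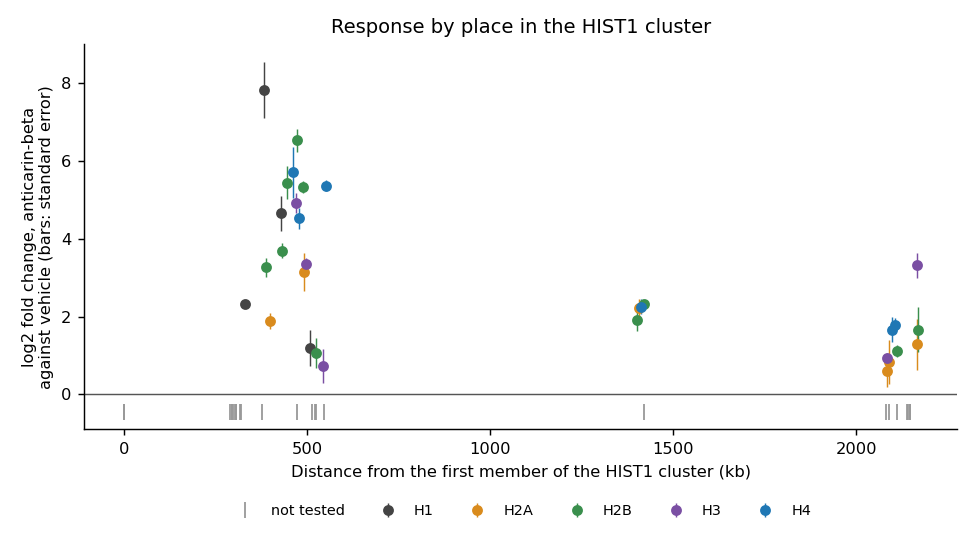
Log2 fold change with its standard error (anticarin-beta against vehicle) of the tested HIST1 members by distance in kb from the first member, coloured by class, with grey ticks for members not tested. Before the wide gap 11 of 18 tested members lie above 3.32, the highest value among the 13 after it. Tested H2A, H2B, H3 and H4 members lie on both sides and tested H1 members only before it, and the point of HIST1H1T, over 0 vehicle counts, depends on the prior count. Among the 11, HIST1H1E, HIST1H1T, HIST1H2BE, HIST1H2BF, HIST1H3D, HIST1H4D and HIST1H4E were not over the filter level in all 3 vehicle libraries.

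Many H2A and H2B genes share a short region between their starts, and 12 such head-to-head pairs were found with gaps of 139 to 331 bases. Both partners were tested in 6 pairs and called higher with anticarin-beta in 5. In the pair with the gap of 139 bases, counted among the 5, the H2B partner is the pseudogene HIST2H2BD. Since 88.6% of all tested members were called higher, most such pairs would have both partners called whichever members were paired. The partners differed in level. HIST2H2BE averaged 57.8 ± 0.554 CPM with anticarin-beta and 6.10 ± 2.25 CPM with vehicle, while its partner HIST2H2AC averaged 0.226 CPM with anticarin-beta and 0.194 CPM with vehicle and was not tested. In the pair with a gap of 331 bases, HIST1H2BK had the levels given above and HIST1H2AH averaged 0.0837 CPM with anticarin-beta and 0.0712 CPM with vehicle. HIST1H2BF averaged 11.0 ± 1.49 CPM with anticarin-beta and HIST1H2AD, 277 bases away, 0.403 CPM. Model lengths differ between partners, so these values on the CPM scale describe each gene and not a ratio between them. Most 50-base stretches of HIST1H2AD recur in other genes, mainly in AL031777.3, whose exons overlap it on the same strand. Part of HIST2H2AC recurs too, in genes such as HIST2H2AA3. The models of HIST1H2AD, HIST2H2AC and HIST1H2AH stop at the coding part. Their reads may thus be missing from the counts, so the low values do not show that these partners are silent.

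**Figure D5:**
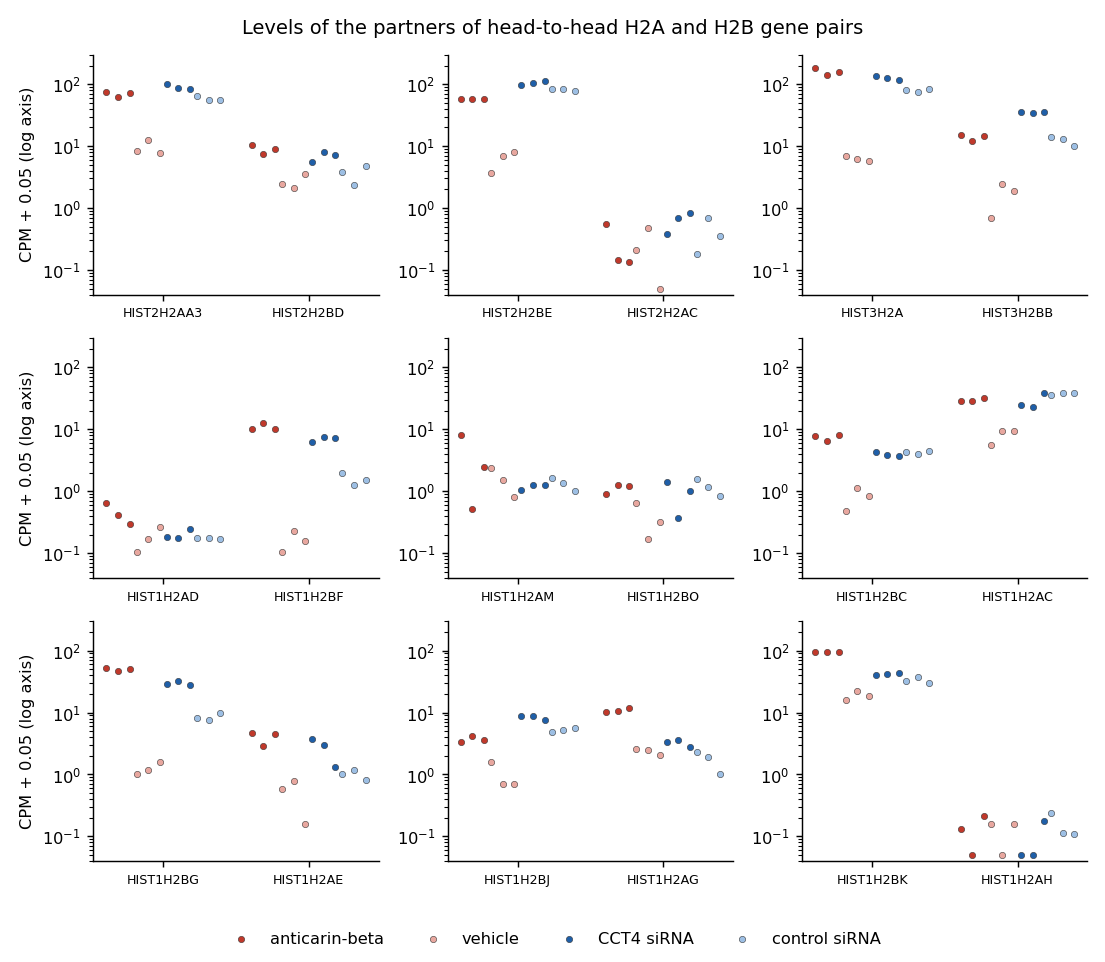
Levels (CPM + 0.05, log axis) of both partners in every library for the 9 head-to-head H2A and H2B pairs with at least 1 partner called higher with anticarin-beta. HIST1H2AH, HIST2H2AC and HIST1H2AD stay below 1 CPM in all 4 groups beside partners that exceed 10 CPM with anticarin-beta. Their models stop at the coding part, and HIST1H2AD and HIST2H2AC share sequence with other genes, so some of their reads may be missing.

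In the libraries labelled CCT4 siRNA, 20 of the 44 tested members were called higher than with control siRNA and 0 lower by edgeR. At an unadjusted p under 0.05, 24 were higher and 0 lower, and DESeq2 and limma-voom each called 23 higher and 0 lower, limma-voom with 1 lower at an unadjusted p under 0.05. Over all genes tested, 10.7% were called higher and 9.04% lower. The median log2 fold change was 0.56 over the members and 0.01 over all genes. By class the called members were 2 of 4 H1, 5 of 9 H2A, 5 of 15 H2B, 5 of 7 H3 and 3 of 9 H4. The 2 comparisons share no library, and 19 members were called higher in both, which is 48.7% of those called with anticarin-beta and 95.0% of those called with CCT4 siRNA. Since 88.6% of the tested members were called higher with anticarin-beta, most members called with CCT4 siRNA would be shared whichever they were. Over all genes, 63.3% of those called higher with CCT4 siRNA were also called higher with anticarin-beta. The one called with CCT4 siRNA alone was HIST1H3G, at 1.37 ± 0.287 CPM with CCT4 siRNA and 0.460 ± 0.157 CPM with control siRNA, a log2 fold change of 1.57 (adjusted p = 0.0285). It missed the threshold without any 1 CCT4 siRNA library (1.39, 1.63 and 1.68) and without control siRNA replicate 2 (1.45) or 3 (1.41).

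The member with the smallest p in this comparison was HIST1H2BG, at 28.9, 31.8 and 27.9 CPM with CCT4 siRNA, against 8.26, 7.48 and 9.66 CPM with control siRNA. The groups were far apart (3.48-fold, log2 fold change 1.80 ± 0.13, adjusted p = 3.53e-06). HIST1H2BF had 6.28, 7.34 and 7.33 CPM with CCT4 siRNA, against 1.92, 1.20 and 1.49 CPM with control siRNA (4.52-fold, log2 fold change 2.18 ± 0.21, adjusted p = 3.64e-05). HIST2H3C had 3.92, 4.68 and 3.15 CPM with CCT4 siRNA, against 0.897, 1.08 and 0.656 CPM with control siRNA (log2 fold change 2.15 ± 0.26, adjusted p = 0.000219). HIST1H2BE and HIST1H3D, with log2 fold changes of 5.44 and 4.91 for the compound, were not called here (adjusted p = 0.233 and 0.78). HIST1H2BE was called without control siRNA replicate 2 (1.66, adjusted p = 0.0343).

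Larger in level but smaller in ratio were the H2A genes. HIST3H2A had 137, 124 and 115 CPM with CCT4 siRNA, against 79.6, 74.1 and 83.5 CPM with control siRNA (1.58-fold, adjusted p = 0.000938). HIST2H2AA4 had 74.1, 71.0 and 72.7 CPM with CCT4 siRNA, against 52.3, 47.3 and 48.9 CPM with control siRNA (1.47-fold, adjusted p = 0.000505). Both separated the groups in all 3 libraries. HIST1H1C reached 35.8, 37.3 and 37.7 CPM with CCT4 siRNA, against 32.8, 28.0 and 28.4 CPM with control siRNA, a log2 fold change of 0.31 ± 0.09 (adjusted p = 0.0247). That call was lost without any 1 CCT4 siRNA library (0.34, 0.31 and 0.30), without replicate 2 (0.27) or 3 (0.28) of control siRNA, and with library totals alone (0.18) or no low-count filter (0.31).

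Several members called higher with anticarin-beta did not pass in this comparison. HIST1H3D averaged 2.79 ± 0.491 CPM with CCT4 siRNA and 2.59 ± 0.231 CPM with control siRNA, a log2 fold change of 0.10 (adjusted p = 0.78). HIST2H2BE averaged 104 ± 7.02 CPM with CCT4 siRNA and 81.9 ± 3.40 CPM with control siRNA (log2 fold change 0.35, adjusted p = 0.171), but it was called without vehicle replicate 1 (0.35, adjusted p = 0.00532), by limma-voom (0.35, adjusted p = 0.0497) and with each experiment fitted alone (0.33, adjusted p = 0.0117). HIST1H2AC had 25, 23.0 and 39.0 CPM with CCT4 siRNA, against 35.3, 39.0 and 37.9 CPM with control siRNA. CCT4 siRNA replicate 3 stood apart in that gene, and without it the log2 fold change of −0.37 became −0.64 and was called lower (adjusted p = 0.0368).

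The response to anticarin-beta was larger than that in the CCT4 siRNA libraries for 35 of the 44 tested members and smaller for 0, by edgeR's test of the difference of the responses. At an unadjusted p under 0.05 the counts were also 35 and 0, and DESeq2 called 36 and 0 and limma-voom 35 and 0. Over all genes, 27.5% were called higher in this difference and 32.4% lower. The median difference in log2 fold change was 2.03 over the members and −0.09 over all genes. It was called for 3 of 4 H1, 6 of 9 H2A, 13 of 15 H2B, 5 of 7 H3 and 8 of 9 H4 genes. HIST1H4H had the smallest p, with a difference of 4.86 ± 0.18 (adjusted p = 1.19e-09). Its level was 8.11, 7.53 and 8.04 CPM with CCT4 siRNA, against 5.38, 5.71 and 5.55 CPM with control siRNA, a log2 fold change of 0.51 ± 0.13 (adjusted p = 0.0152) that missed the threshold without control siRNA replicate 1 (0.49, adjusted p = 0.054).

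The other 4 members with the smallest p in this difference came from H2A, H2B and H1. HIST3H2A had a difference of 4.02 ± 0.16 (adjusted p = 1.38e-09) and HIST2H2AA4 one of 2.24 ± 0.11 (adjusted p = 8.66e-09). HIST1H2BG had a difference of 3.54 ± 0.20 (adjusted p = 2.15e-08) and HIST1H1C one of 2.02 ± 0.13 (adjusted p = 4.07e-08). For HIST1H3H, in contrast, the difference was 0.30 ± 0.20 (adjusted p = 0.199), with log2 fold changes of 0.93 and 0.63 in the 2 comparisons. The compound and siRNA experiments differ in time and in delivery, so these differences belong to the pairs of groups as collected.

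The vehicle and control siRNA groups were themselves unlike. Summed over all members, the level was 500 ± 18.3 CPM with control siRNA and 138 ± 10.1 CPM with vehicle (SD, n = 3 each). HIST2H2BE averaged 81.9 CPM with control siRNA and 6.10 CPM with vehicle, and HIST3H2A 79.1 CPM with control siRNA and 6.21 CPM with vehicle. H3 was the exception, at 13.5 CPM with control siRNA and 15.3 CPM with vehicle. Time in culture, transfection and experiment all differ between these groups and cannot be told apart, so no test is given.

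Other genes of the histone supply were looked at in 3 lists, chosen with earlier results of these data known. Of 17 genes for histone mRNA processing and histone delivery, 2 rose and 10 fell with anticarin-beta (median log2 fold change −0.75), where 34.9% of all genes tested rose and 38.0% fell. CHAF1B, a subunit of the chromatin assembly factor, fell to 4.44 ± 1.08 CPM with anticarin-beta, against 55.9 ± 3.79 CPM with vehicle (log2 fold change −3.65, adjusted p = 2.36e-10). The chaperones ASF1B and ASF1A, which hand H3 and H4 to assembly factors, also fell. ASF1B was at 23.8 ± 2.23 CPM with anticarin-beta and 97.9 ± 7.63 CPM with vehicle (log2 fold change −2.04, adjusted p = 4.11e-10), and ASF1A at 2.95 ± 0.455 CPM with anticarin-beta and 18.3 ± 0.761 CPM with vehicle (log2 fold change −2.63, adjusted p = 1.21e-09). SLBP, which binds the stem-loop, was at 40.0 ± 2.62 CPM with anticarin-beta and 67.4 ± 12.1 CPM with vehicle (log2 fold change −0.75, adjusted p = 0.000309). In the CCT4 siRNA libraries 1 of the 17 rose, namely ASF1B, and 3 fell (median −0.15), where 10.7% of all genes rose and 9.04% fell.

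Of 22 genes for S phase and DNA replication, 0 rose and 21 fell with anticarin-beta (median log2 fold change −1.83), by edgeR, DESeq2 and limma-voom alike, and 0 were higher at an unadjusted p under 0.05. Over all genes tested, 34.9% rose and 38.0% fell by edgeR. RRM2, a subunit of ribonucleotide reductase, was at 16.2 ± 1.53 CPM with anticarin-beta and 109 ± 5.65 CPM with vehicle (log2 fold change −2.75, adjusted p = 5.83e-11). MCM4, a subunit of the replicative helicase, was at 84.3 ± 3.58 CPM with anticarin-beta and 351 ± 18.3 CPM with vehicle (log2 fold change −2.06, adjusted p = 7.89e-11). LIG1, the ligase that joins Okazaki fragments, was at 11.5 ± 1.49 CPM with anticarin-beta and 68.4 ± 1.49 CPM with vehicle (log2 fold change −2.57, adjusted p = 1.25e-10). Counts of the histone cluster genes and of this list thus moved in opposite directions with anticarin-beta. Which kind of histone transcript gave these counts was not tested. With CCT4 siRNA, 8 of the 22 rose and 0 fell by edgeR (median 0.18), 11 and 0 at an unadjusted p under 0.05, and 9 and 0 by both DESeq2 and limma-voom. In that comparison 10.7% of all genes tested rose and 9.04% fell by edgeR.

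Replication-independent histone variants, which lie outside the clusters and are made through the cell cycle, were called in both directions. Of 11 tested of 12 listed, 6 rose and 4 fell with anticarin-beta (median log2 fold change 0.33), and 4 rose and 1 fell with CCT4 siRNA (median 0.29). With anticarin-beta 34.9% of all genes tested rose and 38.0% fell, and the 4 of 11 that fell are near the latter share. With CCT4 siRNA 10.7% of all genes rose and 9.04% fell, and the 1 of 11 that fell is near the latter share. H2AFZ, which encodes the variant H2A.Z, was at 423 ± 27.3 CPM with anticarin-beta and 174 ± 22.3 CPM with vehicle (log2 fold change 1.29, adjusted p = 1.12e-07). H2AFY2, which encodes a macroH2A, fell to 1.87 ± 0.213 CPM with anticarin-beta, against 9.32 ± 0.781 CPM with vehicle (log2 fold change −2.31, adjusted p = 1.54e-07). H1FX, a linker histone variant, was at 225 ± 31.8 CPM with anticarin-beta and 111 ± 16.8 CPM with vehicle (log2 fold change 1.02, adjusted p = 7.48e-06).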

How the data were processed

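Read counts per gene, as the authors deposited them, were used for 12 libraries, neither normalized nor pooled. Per the labels' protocols a stranded TruSeq kit was used. The submitters' processing notes name hg38 and the tools featureCounts 1.5.0, Subread and STAR 2.5.2a. The sources used here do not give annotation release, strand setting or treatment of multi-mapping reads. Groups came from the labels. In each pair of replicates, counts differed beyond sampling noise, with a chi-square of 8.48 to 26.5 per degree of freedom.

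The test was edgeR 4.0.16 (R 4.3.3), quasi-likelihood, two-sided, with TMM scaling, filterByExpr, 1 mean per group over 12 libraries (8 residual degrees of freedom) and Benjamini-Hochberg adjustment over 17717 genes; every adjusted p is from it. Fold changes carry a prior count of 0.125. It was tested on simulated counts. Alternatives used DESeq2 1.42.0, limma 3.58.1, other scalings, filters and thresholds, a replicate block, each experiment alone and the omission of each library. Positions, models, 50-base stretches and stem-loops came from GENCODE release 29 and promoters from RefSeq.

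The members and lists were chosen with earlier results of these data known. Members given in full were, per class, the 2 highest and 2 lowest called log2 fold changes with anticarin-beta and the highest vehicle level, plus the 5 smallest p among called members with CCT4 siRNA and in the difference of responses, with pair partners; from each list, the 3 smallest p with anticarin-beta. Others were named after their values were seen.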

Additional observations from a re-analysis of the deposited data

How the results depend on the processing

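Under 21 other settings for each direct comparison and 20 for the difference, 0 members changed direction while called. The call was kept under every setting that tested the member for 36 of 39 with anticarin-beta, 13 of 20 with CCT4 siRNA and 32 of 35 in the difference. At an adjusted p under 0.01 the CCT4 siRNA count was 12, all higher. Leaving out 1 library gave 37 to 41 called members with anticarin-beta, 14 to 24 with CCT4 siRNA and 32 to 35 in the difference. With CCT4 siRNA, 0 to 1 were called lower, the 1 being HIST1H2AC without CCT4 siRNA replicate 3. With the replicate block the counts were 39, 19 and 35. Replicate numbers did not pair the libraries (correlations of −0.03 to 0.03). Under library totals alone the log2 ratios of the class sums with anticarin-beta were 2.49 over all members, 1.99 for H1, 2.70 for H2A, 2.37 for H2B, 2.31 for H3 and 2.73 for H4. With CCT4 siRNA they were 0.40, 0.26, 0.38, 0.45 and 0.78 for all members, H1, H2A, H2B and H3, and 0.20 for H4, against 0.33 with TMM, which is within its spread. This scaling lowers the median of all genes as well. The class sums otherwise moved by less than their spread under the other scalings, with tested members alone and with any library left out. Depth limits the 32 untested members. Without the low-count filter 27 of them were fitted, and 4 were called higher with anticarin-beta, named here after their values were seen. HIST1H2BM had 12 counts with anticarin-beta and 1 with vehicle, a ratio of 18.7 with a counting interval of 2.77 to 799. HIST1H4C had 10 counts with anticarin-beta and 1 with vehicle. HIST3H2BA had 5 with anticarin-beta and 0 with vehicle, and HIST2H3D 20 with anticarin-beta and 11 with vehicle. Other untested members had fewer counts with anticarin-beta and were not called. Among them HIST1H3I had 2 counts with anticarin-beta and 9 with vehicle, and HIST1H2BI 0 with anticarin-beta and 5 with vehicle.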
